A study of Bos taurus with 12 samples.

Results

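The miR-2284 and miR-2285 family comprised all mature bovine miRNAs whose names start with bta-miR-2284 or bta-miR-2285. There were 54 such names among the 755 mature names in the count files, 32 of them numbered 2284 and 22 numbered 2285. Each name was taken at the precursor entry with the most reads, and names with identical counts in all libraries were counted once. Of the 54 names, 41 had at least 1 read and collapsed to 33 distinct members, whereas 13 names had no read in any library.

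Granulosa cells line the ovarian follicle around the oocyte, and the study asked how their miRNAs differ between the follicle that becomes dominant and those that do not. The 12 small RNA libraries came from bovine granulosa cells, with 3 biological replicates for each of 4 groups, namely subordinate follicles (SF) on day 3 or day 7 of the oestrous cycle and dominant follicles (DF) on the same days. All donors were Simmental heifers of unstated age whose oestrus had been synchronised with a prostaglandin F2α analogue and a GnRH analogue, and different heifers were slaughtered on each day. SF and DF were told apart by diameter alone, and follicular fluid was pooled by follicle size before the cells were spun down. The sources do not say how many follicles entered each library, and so few dominant follicles were available at day 7 that a DF library of that day may stem from a single follicle. The fluid was spun after the oocytes with their cumulus had been taken out, and no purification of the pelleted cells is described. In such bulk samples, fewer cells of a type and less RNA per cell cannot be told apart, and the p-values measure only the spread between these samples.

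A miRNA is a short RNA, cut from a hairpin precursor, that guides Argonaute proteins to partly complementary messenger RNAs and lowers their translation or stability. The miR-2284 and miR-2285 family is known for its expansion in ruminants, where very many genomic copies encode closely similar mature miRNAs, most of them with no established target. Because copies are so alike, a read can fit several precursors, so that a count belongs to a mature sequence more firmly than to a locus. Several names had to be merged for this reason. bta-miR-2284x and bta-miR-2284y had identical counts (called bta-miR-2284x/y here), as did bta-miR-2284z and the 4 names bta-miR-2284aa-1 to bta-miR-2284aa-4 (bta-miR-2284z/aa), and bta-miR-2285b and bta-miR-2285u (bta-miR-2285b/u). bta-miR-2284f with bta-miR-2285v, and bta-miR-2284m with bta-miR-2285h, were merged on a single read each.

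The libraries held 160418 to 405129 miRNA reads when each name was counted once, so that 3 reads corresponded to 0.000741 to 0.00187% of a library. DF at day 7 stood apart from the other groups. Its libraries summed to 3110, 8636 and 782.9 normalized counts over 4 miRNAs of leukocytes (miR-142-5p, miR-142-3p, miR-150 and miR-223), against 107.7 to 705.0 in the other 9 libraries. miR-143 and miR-145, which mark smooth muscle and stroma, summed to 6723 to 14190 in DF at day 7 and to 2206 to 4909 elsewhere. bta-miR-202, a miRNA of gonadal somatic cells, was present in every library but lay at 364.3 to 975.5 in DF at day 7 against 2213 to 3673 elsewhere. Results on DF at day 7 are given with this in view, and the part of these other cells in them was not tested except where a value is given.

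The family took a small share of granulosa miRNA. Its 6082 reads made up 0.1789% of all miRNA reads. At day 3 the share averaged 0.211% ± 0.0191 (SD, n = 3) for SF and 0.229% ± 0.0245 for DF. At day 7 it averaged 0.147% ± 0.0394 for SF and 0.121% ± 0.0215 for DF. The lowest day 3 library, at 0.196%, lay above the highest day 7 library, at 0.192%, by a narrow margin. Reads were counted here at 1 precursor per name, and when reads on all listed precursors were summed the share was 0.511 to 0.881% by group. In that sum a read listed at several precursors, or under several names with identical counts, was counted each time. The days then overlapped, with 0.683% in SF day 7 replicate 1 and 0.652% in SF day 3 replicate 2. The lowest mean, 0.511%, was then that of SF at day 7, so SF no longer lay above DF on that day. The summed shares weight a member by its number of listings, so they cannot decide the order of days or groups.

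A pair of members carried most of these reads. bta-miR-2285k held 38.8% and bta-miR-2284x/y 34.9% of the family, and they ranked 87 and 92 among the 418 distinct miRNAs with reads. bta-miR-2285f and bta-miR-2284z/aa followed with 408 and 388 reads, then bta-miR-2285q with 185 reads. A further 14 members had 10 to 99 reads and 14 had fewer than 10, with a median of 12 reads per member against 75 among all other miRNAs.

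The lower family total at day 7 was carried by 1 member. Normalized counts (reads divided by a size factor of the library) of the whole family averaged 557.8 ± 45.2 (SF) and 565.3 ± 91.0 (DF) at day 3, then 421.3 ± 83.7 (SF) and 329.9 ± 42.2 (DF) at day 7 (SD, n = 3). Without bta-miR-2285k the family averaged 273.1 ± 11.6, 312.5 ± 15.6, 276.0 ± 31.4 and 302.9 ± 33.7 in the same order of groups. The composition changed with it. At day 3 bta-miR-2285k made up 47.0 to 53.1% (SF) and 35.0 to 50.0% (DF) of the family, and at day 7 30.8 to 39.8% of it in SF and 9.80, 8.64 and 5.71% in the DF libraries. bta-miR-2284x/y made up 56.0 to 60.0% of the family in DF at day 7 and at most 42.1% in any other library.

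**Figure D1:**
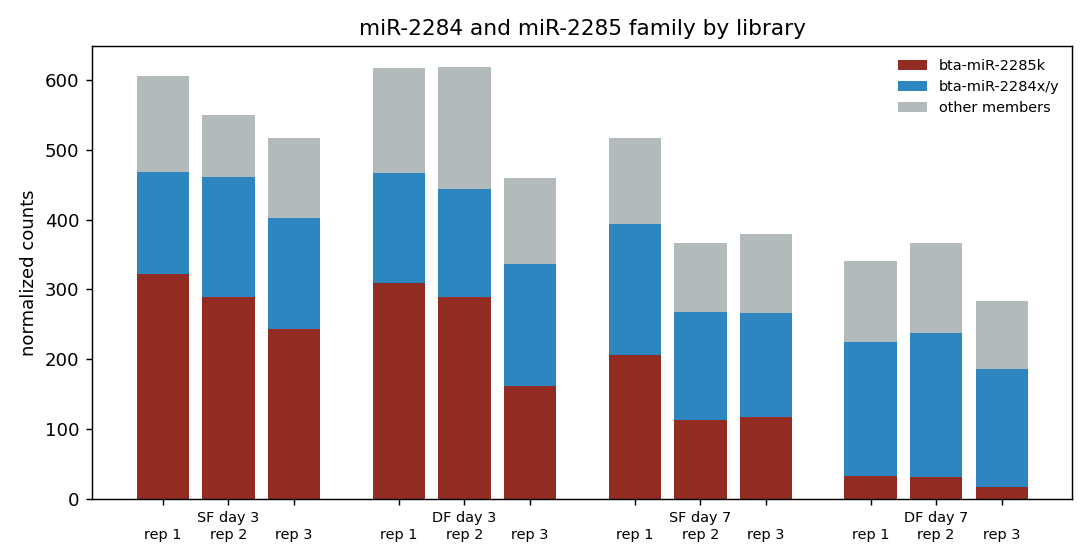
Stacked bars of normalized counts for bta-miR-2285k, bta-miR-2284x/y and the other family members in each of the 12 libraries. The bta-miR-2285k segment shrinks to 16.2 to 33.4 normalized counts in DF at day 7, while the bta-miR-2284x/y segment lies between 147.1 and 206.3 in all libraries.

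A member counted as detected in a group where 2 or more of the 3 replicates had a read. By this rule 18 members were detected in day 3 SF, 20 in day 3 DF, 18 in day 7 SF and 19 in day 7 DF, with 12 detected in all 4 groups and 26 in at least 1. The 26 were 78.8% of the 33 members with reads, against 342 of 385 other miRNAs (88.8%) and 56 of 78 miRNAs numbered bta-miR-2286 to bta-miR-2489 (71.8%), which are also mostly of low abundance. With at least 5 reads required, 8 to 10 members were detected per group, so most of the family lay at the limit of this depth.

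In all, 9 of the members had reads in all 12 libraries, namely bta-miR-2285k, bta-miR-2284x/y, bta-miR-2285f, bta-miR-2284z/aa, bta-miR-2285q, bta-miR-2285g, bta-miR-2285e, bta-miR-2284w and bta-miR-2284h-5p. The 46 reads of bta-miR-2284h-5p were those at precursor 2284y-4, which are also listed for bta-miR-2284y. At its own precursor, 2284h, it had 1 read. Detection in a single group was seen for 7 members, and each rested on 3 to 8 reads in all. These were bta-miR-2285p and bta-miR-2285r in SF and bta-miR-2285m and bta-miR-2285o in DF at day 3, bta-miR-2285i in SF and bta-miR-2284n and bta-miR-2285s in DF at day 7. At such counts absence from the other groups was not distinguishable from shallow sampling. Another 7 members, with 1 to 5 reads each, were detected in no group (bta-miR-2284k, bta-miR-2284r, bta-miR-2284u, bta-miR-2284l, bta-miR-2284o and the merged pairs bta-miR-2284f with bta-miR-2285v and bta-miR-2284m with bta-miR-2285h). The 13 names without reads were bta-miR-2284a, c, d, e, g, h-3p, i, j, p, q and s, and bta-miR-2285a and d.

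Differential expression was tested between SF and DF on each day, and between days within SF and within DF, by fitting the reads of all detected miRNAs with the quasi-likelihood method of edgeR. To be called differentially expressed, a miRNA had to pass 3 thresholds, a log2 fold change of 1 in either direction, an unadjusted p of 0.05 and a false discovery rate (FDR, the adjusted p) of 10%. Positive log2 fold changes denote higher expression in SF, or at day 7. The 12 members that averaged at least 5 reads in a group, or were called in any comparison, are described by library, and the other 21 members together held 206 reads (3.39% of the family).

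**Figure D2:**
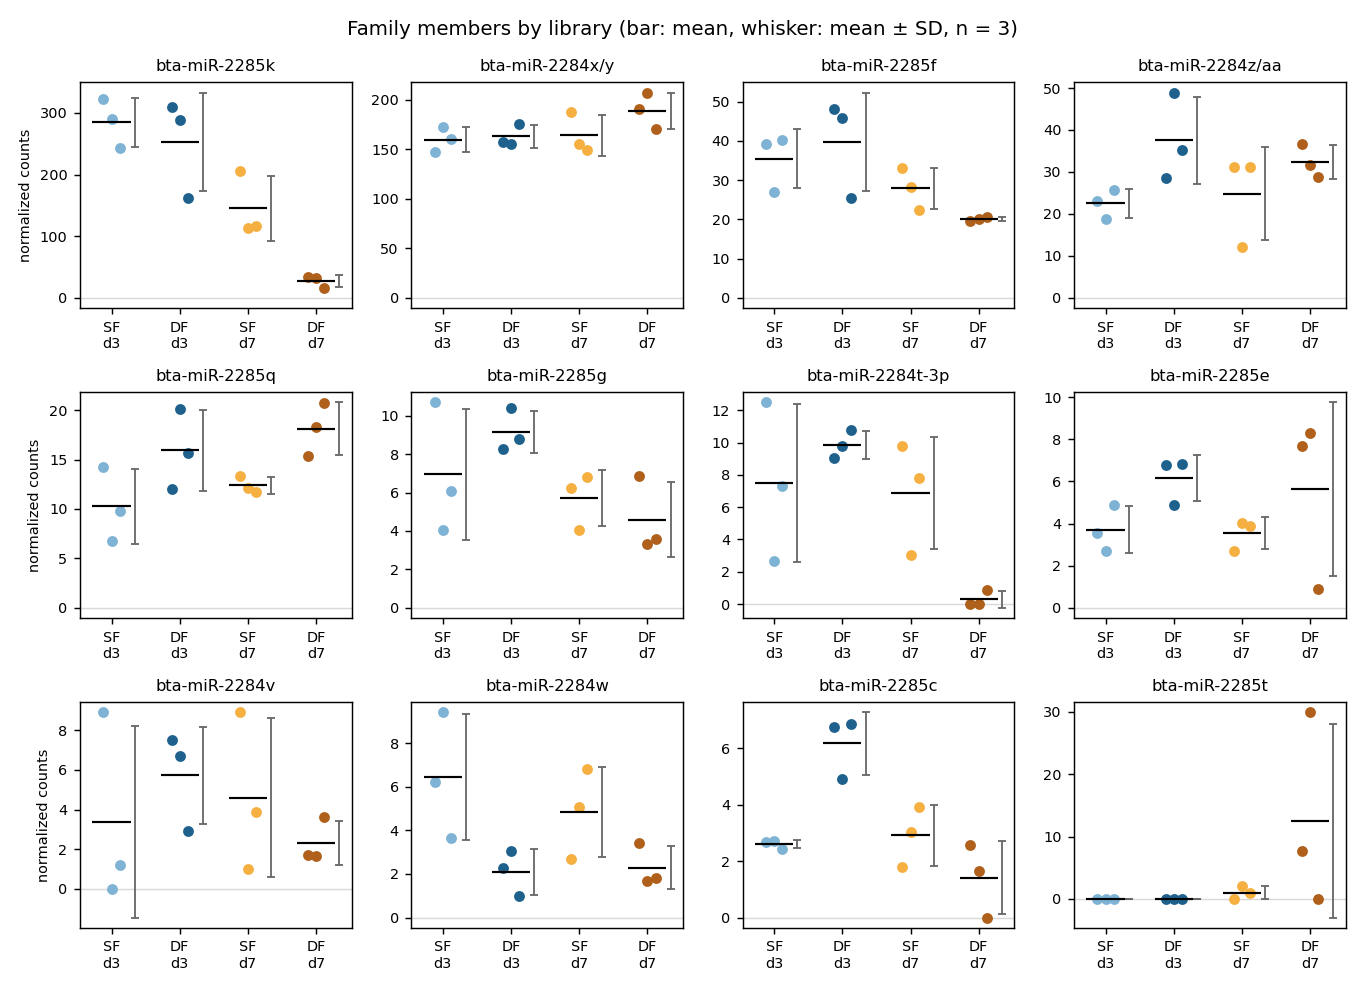
Normalized counts of 12 family members in each library, by follicle class and day, with the group mean as a bar and the SD as a whisker beside it (n = 3), on a separate linear axis for each member. bta-miR-2285k and bta-miR-2284t-3p are lowest in DF at day 7, bta-miR-2284x/y lies at one level throughout, and bta-miR-2285t is seen in libraries of day 7 alone.

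At day 3 no family member was differentially expressed between SF and DF. The count was 0 of the 22 members tested, in a comparison in which 5.81% of the 327 miRNAs tested were called, and DESeq2 also called 0. Unadjusted p was under 0.05 for 2 of the 22 members and for 79 of the 327 miRNAs tested. The 2 members were bta-miR-2284z/aa (log2 fold change -0.78, SE 0.28, edgeR adjusted p = 0.0695) and bta-miR-2284w (1.43, SE 0.68, edgeR adjusted p = 0.191). For both, the libraries of SF and DF did not overlap. This also held for bta-miR-2285c and bta-miR-2285e, with unadjusted edgeR p of 0.0707 and 0.238. The share of all miRNAs without overlap was not counted, so no result is drawn from these cases. bta-miR-2284z/aa measured 23.2, 18.9 and 25.7 in SF against 28.6, 48.9 and 35.2 in DF, and bta-miR-2284w measured 6.24, 9.42 and 3.67 in SF against 2.25, 3.06 and 0.977 in DF. The median log2 fold change of the tested members was -0.36, beside -0.04 for all miRNAs tested. It was -0.39 for the 44 miRNAs tested that are numbered bta-miR-2286 to bta-miR-2489.

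At day 7 the picture differed, with 3 of the 22 tested members differentially expressed. bta-miR-2285k and bta-miR-2284t-3p were higher in SF, and bta-miR-2285t was higher in DF. Of all 340 miRNAs tested, 34.1% were called (15.3% higher and 18.8% lower in SF), so the members' share of 13.6% lay below that background. The median log2 fold change of the tested members was 0.18 (all miRNAs, -0.03, and those numbered bta-miR-2286 to bta-miR-2489, 0.34).

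Between day 3 and day 7, changes were found in DF. In DF, 5 of the 23 tested members were differentially expressed, of which bta-miR-2285k, bta-miR-2284t-3p, bta-miR-2285c and bta-miR-2285f decreased and bta-miR-2285t increased, against a background of 40.9% of 350 miRNAs called (24.9% up and 16% down). The tested members had a median log2 fold change of -0.65 (all miRNAs, 0.06, and those numbered bta-miR-2286 to bta-miR-2489, -0.235). In SF, 0 of 22 members were called where 0.61% of 328 miRNAs were. The DESeq2 count in SF was also 0, whereas the study, which used DESeq2, reported bta-miR-2285k as lower at day 7 in SF. In the edgeR test 1 member, bta-miR-2285k, had an unadjusted p under 0.05, as had 37 of the 328 miRNAs. The comparisons at day 7 and within DF share the DF libraries of day 7, and are therefore not independent of each other.

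**Figure D3:**
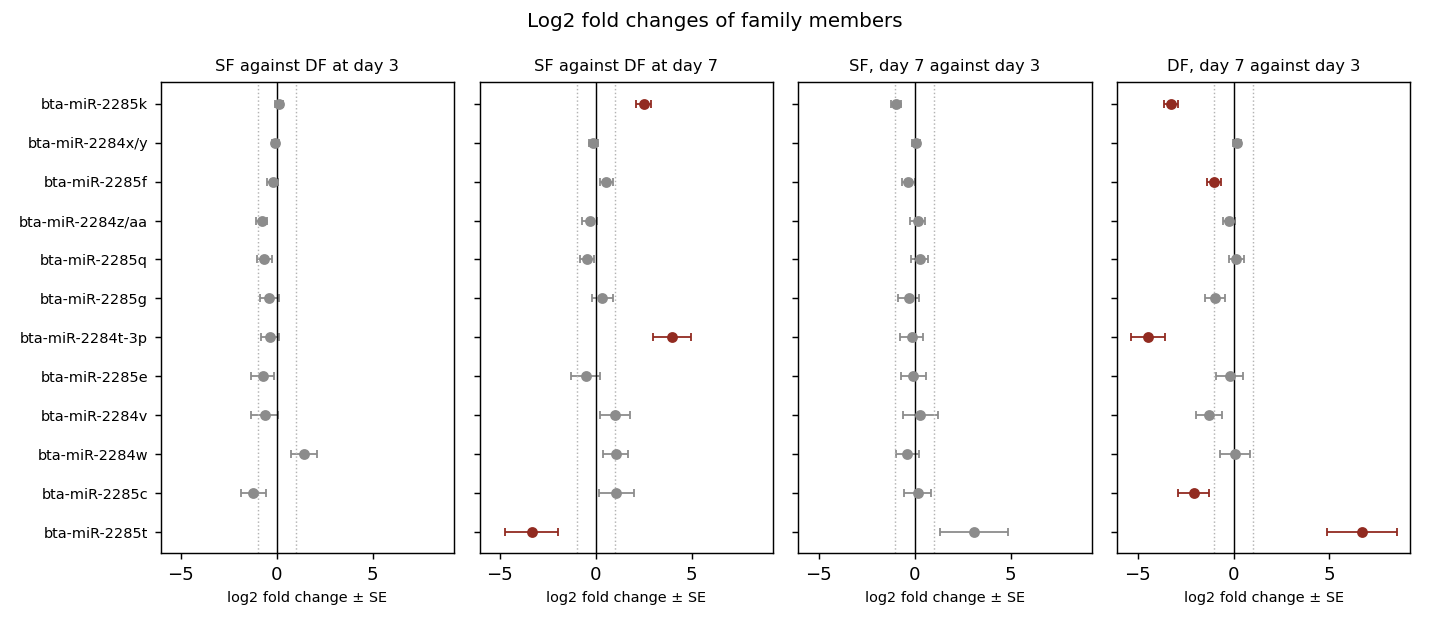
Log2 fold changes with their SE for 12 family members in 4 comparisons, with called members in red, the others in grey, and dotted lines at -1 and 1. No member is called between SF and DF at day 3 or between days in SF, and bta-miR-2285t is missing from the day 3 panel because it had no reads there.

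bta-miR-2285k was the most abundant member and the one with the clearest difference. At day 3 it measured 321.8, 289.5 and 243.1 normalized counts for SF and 308.8, 288.6 and 161.2 for DF. At day 7 it measured 205.8, 113.3 and 116.9 for SF, and 33.4, 31.6 and 16.2 for DF. Every DF library of day 7 lay below every other library, and the SF libraries of day 7 lay below those of SF at day 3, whereas SF and DF overlapped at day 3.

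These levels gave a log2 fold change between SF and DF of 0.12 at day 3 (SE 0.19, edgeR adjusted p = 0.784) and of 2.51 at day 7 (SE 0.38, edgeR adjusted p = 0.000712). Within DF, bta-miR-2285k decreased from day 3 to day 7 with a log2 fold change of -3.26 (SE 0.35, edgeR adjusted p = 3.56e-06). Within SF the log2 fold change was -0.95 (SE 0.26, edgeR adjusted p = 0.13) and was not called. This last call depended on SF day 7 replicate 1, the highest of its group. Without it the log2 fold change was -1.31 and passed (edgeR adjusted p = 0.000388). The change of the SF to DF ratio between days was tested as an interaction of follicle class and day, and it was 2.27 on the log2 scale for bta-miR-2285k (SE 0.45, edgeR adjusted p = 0.00112).

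The decrease of bta-miR-2285k in DF remained called when any 1 library was left out, with log2 fold changes of -3.55 to -2.96. Leaving out DF day 7 replicates 1 and 2, which held the most leukocyte miRNA, gave -3.98 (edgeR adjusted p = 0.0001). That fit has a single DF library at day 7, assumed to vary like the other groups, and this library, replicate 3, held the highest sum of miR-143 and miR-145 (14190). Set against bta-miR-202, which itself decreased in DF with a log2 fold change of -2.28 (SE 0.29, edgeR adjusted p = 1.93e-05), the picture differed. Per 1000 reads of bta-miR-202 there were 98.7, 78.6 and 50.8 reads of bta-miR-2285k in the day 3 DF libraries and 44.3, 86.8 and 16.6 in those of day 7, and these overlapped. When library sizes were set by bta-miR-202, bta-miR-2285k was not called in DF (log2 fold change -0.75, edgeR adjusted p = 0.257), and the interaction was -0.012.

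bta-miR-2285k was listed at 5 precursors with 1752 to 2362 reads each, and the numbers are not additive since a read can be listed at several. All 5 entries were called in the same direction at day 7 and within DF. In a test on precursor entries as listed, where 35.3% of 464 entries were called at day 7 and 40.4% of 483 within DF, their log2 fold changes were 2.28 to 2.69 between SF and DF at day 7, and -3.41 to -3.03 between days in DF. Between days in SF they were -0.994 to -0.979 (edgeR adjusted p = 0.013 to 0.0175). These fell short of the fold threshold, and none was called. Since entries that share reads were adjusted together, these values are not comparable with the test at 1 entry per name (edgeR adjusted p = 0.13). In RefSeq the gene of the entry with the most reads, MIR2285K-5, lies within the span of LRRC8D, which encodes a subunit of volume-regulated anion channels. MIR2285K-1 lies within DLG2 and MIR2285K-2 within PIP4K2A, whereas the remaining pair lies in no protein-coding gene.

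bta-miR-2284x/y, the second member by abundance, lay at one level. At day 3 it measured 147.1, 172.3 and 160.0 for SF and 157.8, 155.3 and 175.9 for DF, and at day 7 188.0, 154.8 and 149.1 for SF and 190.7, 206.3 and 170.1 for DF. Its log2 fold changes were -0.08 (SE 0.18) between SF and DF at day 3, -0.13 (SE 0.24) at day 7, 0.20 (SE 0.22) between days in DF and 0.06 (SE 0.22) in SF. The libraries overlapped in each of these comparisons. On the scale of bta-miR-202 it did not stay level, with 42.3 to 55.5 reads per 1000 reads of bta-miR-202 in DF at day 3 and 174 to 566 at day 7. Its reads came from the entry of precursor 2284x, whose gene lies within the span of TIAM1, a Rac exchange factor, while the entries of the 7 precursors of bta-miR-2284y held 44 to 90 reads each.

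bta-miR-2284t-3p was nearly absent from DF at day 7. Its reads numbered 14, 2 and 6 (SF) and 12, 16 and 11 (DF) at day 3, and 11, 3 and 8 (SF) and 0, 0 and 1 (DF) at day 7. No DF library of day 7 reached the lowest of the other 9. The log2 fold change was 3.98 between SF and DF at day 7 (SE 0.97, edgeR adjusted p = 0.0104) and -4.47 between days in DF (SE 0.88, edgeR adjusted p = 0.000905).

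Since these rest on 1 read in DF at day 7, the ratios of summed reads carry wide counting intervals. SF exceeded DF at day 7 by 20.2-fold (95% exact interval 3.27 to 834), and DF at day 3 exceeded DF at day 7 by 28.2-fold (4.77 to 1140), both for counting error only. The interaction was 4.25 on the log2 scale (SE 1.13, edgeR adjusted p = 0.00923). It was called without any 1 library. Without both DF day 7 replicates 1 and 2, which leaves 1 DF library at day 7, the one with the group's single read, neither the interaction (3.15, edgeR adjusted p = 0.107) nor the day 7 difference (2.85, edgeR adjusted p = 0.167) was called. bta-miR-2284t-5p, from the other arm of the same hairpin, had 12 reads, with 1 to 3 in most libraries of the other groups and none in DF at day 7, and was not called. Scaled to bta-miR-202, bta-miR-2284t-3p kept its directions, with -2.60 between days in DF (edgeR adjusted p = 0.0453) and 2.53 at day 7, which was no longer called (edgeR adjusted p = 0.0788) since its unadjusted p exceeded 0.05, and the interaction was not called either (2.58, edgeR adjusted p = 0.115). The gene of this hairpin lies within the span of SPON1, a secreted matrix protein.

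bta-miR-2285f and bta-miR-2285c decreased in DF between days by smaller margins. bta-miR-2285f measured 48.1, 45.9 and 25.4 in DF at day 3 and 19.7, 20.0 and 20.7 at day 7, with no overlap (log2 fold change -1.02, SE 0.34, edgeR adjusted p = 0.0306). In SF it measured 39.2, 26.9 and 40.3 at day 3 and 33.0, 28.3 and 22.4 at day 7, which overlapped. Its value lay at the fold threshold, and it was not called without DF day 3 replicate 1 (-0.90), DF day 3 replicate 2 (-0.94), DF day 7 replicate 1 (-0.97), or DF day 7 replicates 1 and 2 together (-0.97), and it rose instead when scaled to bta-miR-202 (1.39). One of its precursor genes, MIR2285F-1, lies within the span of TBK1, a kinase of innate immune signalling.

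bta-miR-2285c counted 9, 8 and 7 reads in DF at day 3 and 3, 1 and 0 at day 7. Its normalized counts in DF at day 3, at 4.89 to 6.84, lay above those of all other libraries, which were 0 to 3.90. The log2 fold change was -2.08 between days in DF (SE 0.81, edgeR adjusted p = 0.0572), and DF against SF at day 3 was not called (-1.23, SE 0.66, edgeR adjusted p = 0.237). The call in DF was lost without DF day 7 replicate 3 (-1.41), and by DESeq2 (-2.17, adjusted p = 0.121). Without DF day 7 replicates 1 and 2, which leaves a library with no read, it was -5.98, and scaled to bta-miR-202 it was 0.089.

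bta-miR-2285t moved the other way. No read was counted at day 3 in any of the 6 libraries. At day 7 it counted 0, 2 and 1 reads in SF and 9, 18 and 0 in DF. Thus 2 of the 3 DF libraries of day 7 were above all others and the third was at 0. The fitted log2 fold change between days in DF was 6.70 (SE 1.83, edgeR adjusted p = 0.0114), but with no read at day 3 it depends on the prior count. It was not called by DESeq2 (6.49, adjusted p = 0.176), and without DF day 7 replicate 1 or replicate 2 it was no longer detected in a group and was not tested. Against a floor of 3 reads over the group, DF at day 7 was at least 12.5-fold higher. At day 7 the log2 fold change between SF and DF was -3.34 (SE 1.39, edgeR adjusted p = 0.0961), and summed reads were 9.80-fold higher in DF (95% exact interval 3.01 to 50.5, counting error only).

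The counts of bta-miR-2285t are given here beside the sum of the 4 leukocyte miRNAs, which was above 100 in all 12 libraries. That sum was mostly miR-142-5p and miR-150, since miR-142-3p and miR-223 reached at most 6.65 and 8.32 normalized counts. DF day 7 replicate 2, at 29.9 normalized counts of bta-miR-2285t, had 8636 normalized counts over the 4 leukocyte miRNAs, DF day 7 replicate 1 had 7.70 and 3110, and DF day 7 replicate 3 had 0 and 782.9. In SF at day 7, replicate 2 had 2.02 and 705.0, replicate 3 had 0.975 and 208.5, and replicate 1 had 0 and 184.4. The order was not the same throughout, since DF day 7 replicate 3 exceeded SF day 7 replicate 2 in leukocyte miRNA and had no read of bta-miR-2285t. Erythrocyte miRNAs (miR-451, miR-486 and miR-144) had the same order in DF at day 7, with sums of 1296, 2322 and 808.1 in replicates 1 to 3. Their sum was 1642 in SF day 3 replicate 1, which had no read of bta-miR-2285t. In RefSeq, MIR2285T lies within the span of FCGR2B, which encodes an Fc receptor of leukocytes. The part of leukocytes or erythrocytes in the result on bta-miR-2285t was not tested. The day 7 call was lost without SF day 7 replicate 1 (-2.75), SF day 7 replicate 3 (-3.35), DF day 7 replicate 1 (-3.62) or DF day 7 replicate 2 (-1.83). Without both of these DF libraries the single one left has no read, which fixes the direction (3.21, edgeR adjusted p = 0.385).

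**Figure D4:**
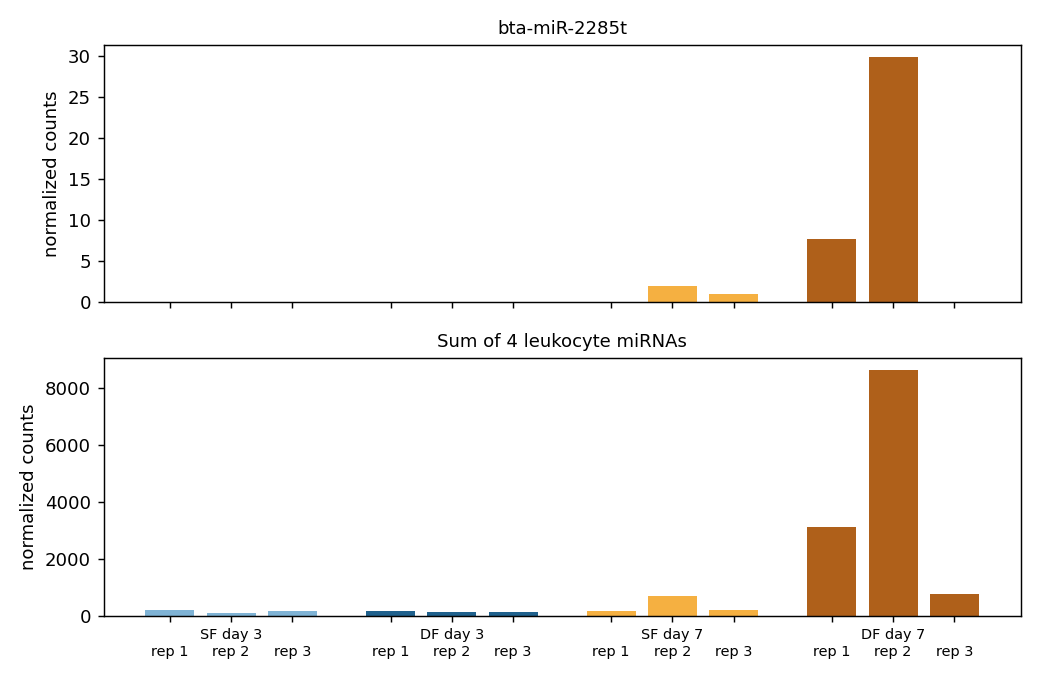
Normalized counts of bta-miR-2285t (upper panel) and the summed normalized counts of miR-142-5p, miR-142-3p, miR-150 and miR-223 (lower panel) in each of the 12 libraries. Both are highest in DF day 7 replicate 2 and second highest in DF day 7 replicate 1, and DF day 7 replicate 3 has no bta-miR-2285t read beside 782.9 normalized counts of leukocyte miRNA.

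bta-miR-2284z/aa gave different answers by precursor. At the entry with the most reads, of precursor 2284z-5, it measured 31.2, 12.1 and 31.2 in SF and 36.8, 31.6 and 28.8 in DF at day 7, which with the values at day 3 gave no call in any comparison. The log2 fold change between days in DF was -0.24 (SE 0.31). The names bta-miR-2284aa-1 to bta-miR-2284aa-4, but not bta-miR-2284z, were also listed at 4 aa precursors. These held 67 to 121 reads against 357 to 388 at the 7 z precursors, where all of the merged names were listed.

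The aa entries were higher in DF at day 7. At precursor 2284aa-1 there were 3, 2 and 0 reads (SF) and 2, 6 and 1 reads (DF) at day 3, and 4, 3 and 6 (SF) and 23, 11 and 11 (DF) at day 7. At precursor 2284aa-2 there were 2, 2 and 0 (SF) and 2, 4 and 0 (DF) at day 3, and 3, 3 and 6 (SF) and 23, 11 and 11 (DF) at day 7. At both, DF at day 7 lay above all other libraries. The log2 fold change between days in DF was 2.64 at 2284aa-1 (SE 0.62, edgeR adjusted p = 0.00107) and 3.19 at 2284aa-2 (SE 0.69, edgeR adjusted p = 0.00046). Between SF and DF at day 7 it was -1.66 (SE 0.57, edgeR adjusted p = 0.0222) and -1.77 (SE 0.58, edgeR adjusted p = 0.0178).

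The remaining entries differed in extent. At 2284aa-3 and 2284aa-4 the log2 fold change between days in DF was 1.10 and 1.05 (edgeR adjusted p = 0.0778 and 0.0842), and neither was called between SF and DF at day 7. At the 7 z precursors it was between -0.38 and -0.23 and none was called. The entries share reads and are not independent, and which sequences of the mature miRNA separate them was not analysed here. MIR2284Z-5 lies within the span of PTPRB, a receptor phosphatase of endothelium, and MIR2284AA-3 within PIK3R5, a regulatory subunit of PI 3-kinase of leukocytes, while the other 3 aa genes lie in no protein-coding gene. Leukocyte miRNA was highest in the same group, and its part in the aa counts was not tested.

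**Figure D5:**
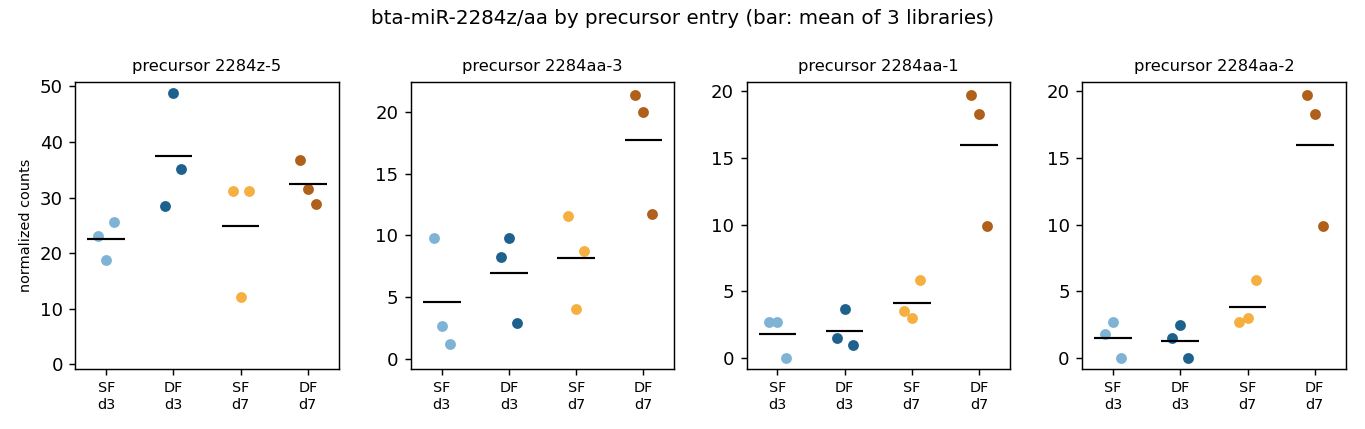
Normalized counts of bta-miR-2284z/aa at 4 of its precursor entries (2284z-5, 2284aa-3, 2284aa-1 and 2284aa-2) in each library by group, with the group mean as a bar (n = 3) and a separate linear axis for each panel. The aa entries are listed for the bta-miR-2284aa names and not for bta-miR-2284z. At 2284aa-1 and 2284aa-2 the 3 DF libraries of day 7 lie above all others, with a mean of 15.96, whereas at 2284z-5 the groups overlap.

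The other members described by library were not called in any comparison. bta-miR-2285q measured 6.73 to 14.3 for SF and 12.0 to 20.2 for DF at day 3. At day 7 it measured 11.7 to 13.4 for SF and 15.4 to 20.7 for DF, which were apart (log2 fold change -0.46, SE 0.37, edgeR adjusted p = 0.358). bta-miR-2285g measured 8.27 to 10.4 in DF at day 3 and 3.33 to 6.84 at day 7, again without overlap (log2 fold change -0.96, SE 0.54, edgeR adjusted p = 0.171). How many of all miRNAs lay apart in these comparisons was not counted, so no result is drawn from either case. bta-miR-2284v varied more within groups than between them, from 0 to 8.91 within SF at day 3. bta-miR-2285e varied widely within DF at day 7, from 0.900 in replicate 3 to 8.32. In the other groups its SD was 0.754 to 1.10, and DF at day 3 lay above SF of both days.

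The position of family genes was compared with that of other miRNA genes in RefSeq. Of the family's 85 precursors 83 were matched by name, and 54 of these (65.1%) lay within the span of a protein-coding gene. Over all genes listed this held for 125 of 191 family genes (65.4%) and 549 of 841 other miRNA genes (65.3%).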

How the data were processed

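The authors removed adapters (cutadapt) and used miRDeep2 to place reads on the UMD 3.1 genome and on miRBase precursors. The deposited values were raw read counts per mature name and precursor, 1 file for each of the 12 libraries, with 906 entries, and groups and replicate numbers were taken from the labels. For each name the entry with the most reads was kept. miRNAs detected in a compared group (1 read in 2 of 3 replicates) were tested with edgeR 4.0.16 in R 4.3.3 (quasi-likelihood, size factors by median ratio, Benjamini-Hochberg over all miRNAs tested, prior count 0.125), each comparison on its own 6 libraries and the interaction on all 12. Whereas the study tested with DESeq2, here DESeq2 1.42.0 was an alternative, as were other scalings, filters, entries and left-out libraries. The scripts were tested on simulated data. Reads shared by several precursors were not split, and PCR copies could not be told from separate molecules, so intervals and floors cover counting error only. Replicate numbers were not tied to an animal. Same-numbered samples of SF and DF at day 7 deviated together weakly (Pearson correlation over 186 miRNAs of 0.13, 0.16 and 0.18), each best with its own number. Whether they are paired is not known. All printed values are from unpaired fits, and a fit with the replicate number as a block changed no family call there. It gave lower edgeR adjusted p, with 0.00189 instead of 0.0961 for bta-miR-2285t and 3.05e-11 instead of 0.000712 for bta-miR-2285k. Marker lists for leukocytes, smooth muscle and stroma and gonadal somatic cells are described with the results. For erythrocytes (miR-451, miR-486 and miR-144) the summed normalized counts were 808.1 to 2322 in DF at day 7 and 315.2 to 1642 elsewhere, and for endothelium (both arms of miR-126) 130.0 to 160.2 and 61.6 to 220.5. Precursors were matched by name to RefSeq genes, whose assembly differs from that of the counts, so no coordinates are given. The members and lists were chosen with earlier results of these data known. Members with a mean of at least 5 reads in a group or called in a comparison were described by library.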

Additional observations from a re-analysis of the deposited data

Results flagged for a closer look

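The SF to DF ratio of bta-miR-2285k changed between day 3 and day 7 by 2.27 on the log2 scale (SE 0.45, edgeR adjusted p = 0.00112). SF and DF overlapped at day 3, and all 3 SF libraries lay above all 3 DF libraries at day 7. The ratio of bta-miR-2284t-3p changed likewise, by 4.25 on the log2 scale (SE 1.13, edgeR adjusted p = 0.00923), with 1 read in DF at day 7. These were 2 of the 26 members tested, where 26.9% of 368 miRNAs were called. Both were called in each of the 12 fits that left out 1 library, with 1.92 to 2.54 for bta-miR-2285k and 3.69 to 6.21 for bta-miR-2284t-3p. With library sizes set by bta-miR-202 neither was called, at -0.012 for bta-miR-2285k (edgeR adjusted p = 1) and 2.58 for bta-miR-2284t-3p (edgeR adjusted p = 0.115).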

How the results depend on the processing

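Counts of called members mostly stayed within 1.5 times under other settings. The exceptions were as follows. With reads summed over precursors, 2 members were called between SF and DF at day 3 (bta-miR-2285m and bta-miR-2285o). Each had 8 reads at its fullest entry, and a read listed at several precursors enters this sum more than once. With at least 10 reads in 3 samples required, 1 was called at day 7 and 3 in DF between days, since fewer members were tested. With entries as listed, 5 were called at day 7, and DESeq2 called 3 in DF. Leaving out 1 library gave 3 to 6 calls in DF, with 3 without DF day 7 replicate 1, and 0 to 1 in SF, with 1 without SF day 7 replicate 1. Without DF day 7 replicates 1 and 2 together, an alternative chosen after seeing the data, DF at day 7 has 1 library, 1 member was called at day 7, and bta-miR-2285t was at 3.21, a direction fixed by the libraries removed. In the other comparisons same-numbered samples did not deviate together throughout (correlations of -0.14 to 0.11, and not every sample correlated best with its own number). With a replicate block the counts were 0 at day 3, 4 in DF (bta-miR-2285f at -0.96), 0 in SF and 2 for the interaction.

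Scaling to bta-miR-202, also chosen after seeing the data, changed most. It moved the median of all miRNAs from -0.06 to -1.96 at day 7, from 0.06 to 2.35 in DF and from 0.02 to -2.05 for the interaction. It gave 1 call at day 3, 9 at day 7, 10 in DF and 6 for the interaction. Over all miRNA names tested it called 36 of 334, 221 of 349, 255 of 359 and 199 of 377, in the same order. Among the 11 or 12 members described by library, signs turned for 4 at day 3, 5 at day 7, 6 in DF, 1 in SF and 7 in the interaction. Those called with either scaling were bta-miR-2285f at day 7 (-1.39), bta-miR-2285c (0.089), bta-miR-2285f (1.39), bta-miR-2284z/aa (2.21) and bta-miR-2285e (2.20) in DF, and bta-miR-2285k (-0.012), bta-miR-2284z/aa (-1.86), bta-miR-2285f (-1.51) and bta-miR-2285q (-2.10) in the interaction. Which scale is right was not tested. Depth limits all members with under 10 reads.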
